A study of Mus musculus with 8 samples.

Results

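Mir148a is the gene of the microRNA miR-148a. It was selected on its level, as the most abundant microRNA listed in a small-RNA survey of mouse sperm. Every listed small RNA that lay within the Mir148a hairpin on chromosome 6 was taken, and there were 7 such names among the 20210 names listed in either of 2 tables. The table of MC-LR against control held 5 of them among its 13450 names, and the table of the shRNA libraries held all 7 among its 17375. The survey had 8 libraries of sperm from Balb/c mice 8 months old, 2 in each of 4 groups, lettered A and B. The groups were MC-LR exposure with its control, and an shRNA against Hsp90aa1 with its negative-control shRNA. Microcystin-LR (MC-LR), made by cyanobacteria, is a toxin that blocks serine/threonine protein phosphatases, and Hsp90aa1 encodes the chaperone HSP90 alpha, whose mRNA these small-RNA libraries do not measure. The labels give no dose of MC-LR, do not say how the shRNA was delivered or which cells took it up, and do not say whether both libraries in a group are separate animals. The p-values below thus set the difference between groups against the spread of the libraries within groups, and that spread may be technical. In the limma fits the spread of each name is also drawn towards the trend over all names.

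A microRNA is cut from a hairpin transcript, first by DROSHA in the nucleus and then by DICER in the cytoplasm, which leaves a 5p and a 3p strand. One strand is loaded into an Argonaute protein, and its seed, bases 2 to 8, pairs with target mRNAs. Copies that start or end a base or more away from the annotated position are called isomiRs: a shifted 5′ end gives another seed, whereas a longer or shorter 3′ end leaves the seed as it is. miR-148a-3p belongs to a family with miR-148b and miR-152 that shares 1 seed and is known for repressing the DNA methyltransferase gene Dnmt1 in mammalian cells.

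All 7 names lay on the minus strand within the 3p arm, and each was listed at a single locus. No name of the 5p arm was listed in either table. The hairpin occupies 6:51269812-51269910 of mm10 (GRCm38.p6), and in the RefSeq sequence below the mature 3p strand is in capitals.
Mir148a hairpin: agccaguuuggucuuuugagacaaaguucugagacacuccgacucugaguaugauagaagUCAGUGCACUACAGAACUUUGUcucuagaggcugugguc

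The 7 names are shown because they differ only in where they begin and end. They were read from the RefSeq hairpin at the listed coordinates, 5′ to 3′, and the capitals mark bases 2 to 8.
piR-mmu-48707800, 22 nt, the annotated mature miR-148a-3p: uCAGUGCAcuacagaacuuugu
piR-mmu-48804957, 23 nt, 3′ end 1 base longer: uCAGUGCAcuacagaacuuuguc
piR-mmu-10900897, 24 nt, 3′ end 2 bases longer: uCAGUGCAcuacagaacuuugucu
piR-mmu-48980022, 21 nt, 3′ end 1 base shorter: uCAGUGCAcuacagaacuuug
piR-mmu-49082011, 20 nt, 3′ end 2 bases shorter: uCAGUGCAcuacagaacuuu
piR-mmu-48921173, 23 nt, 5′ end 1 base longer: gUCAGUGCacuacagaacuuugu
piR-mmu-48740904, 20 nt, 5′ end 2 bases shorter: aGUGCACUacagaacuuugu

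The name piR-mmu-48707800 spans 6:51269829-51269850 and has exactly the bases of miR-148a-3p, so the leading entry of a list of piRNA names is an annotated microRNA. Its seed CAGUGCA, which the 4 names that vary at the 3′ end share, occurs in 3 of the 1679 mature mouse microRNAs in the RefSeq table used here: miR-148a-3p, miR-148b-3p and miR-152-3p. The 5′-shifted names carry the heptamers UCAGUGC and GUGCACU at bases 2 to 8, which are the seed of 0 of the 1679. The 20 nt names piR-mmu-49082011 and piR-mmu-48740904 were listed in the shRNA table alone. All listed names had reads in all 4 libraries of their table. Names whose group means differed by under 0.5 on the log2 scale numbered 2 in the MC-LR table and 0 in the shRNA table, so the lists hold names that differ. The absence of a name from a table therefore says nothing of its level. The next listed locus lay 960218 bases away on one side and 2033200 bases on the other, so no flanking precursor fragment was listed.

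**Figure D1:**
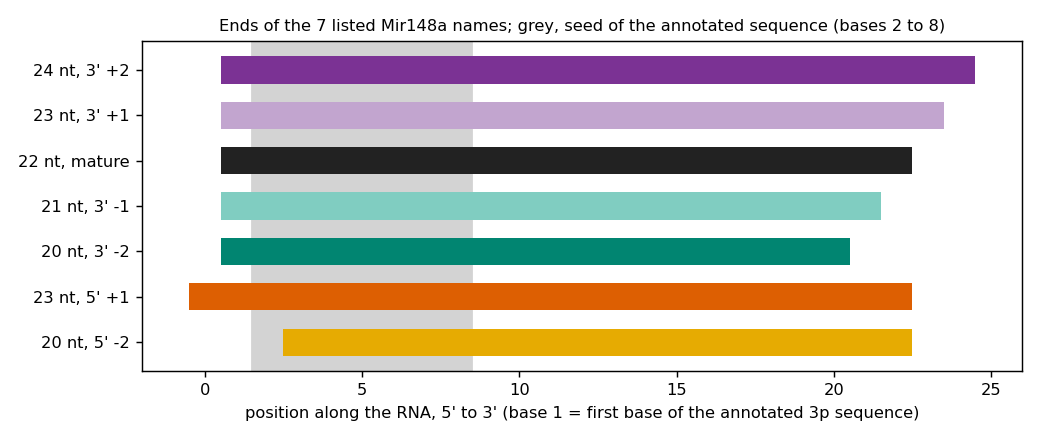
Extent of the 7 Mir148a names, 1 bar per name, in bases along the RNA with base 1 as the first base of the annotated 3p strand and the seed (bases 2 to 8) as a grey band. Of the 7 bars, 5 begin at base 1 and differ only at the right-hand end, and the lowest pair begins before or after it.

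The deposited values are RPM, reads scaled to a common library size. The library total was recovered from the values and ran from 4960467 to 14634370 reads. Of the 22 nt name, the libraries held 56458 and 44244 reads in MC-LR A and B, against 259268 and 53345 in control A and B. The other libraries held 12984 and 2617 reads in Hsp90aa1 shRNA A and B, against 49076 and 99164 in libraries A and B of the negative-control shRNA. The values of the 5′-shifted names rest on far fewer reads, down to 1 read of each in Hsp90aa1 shRNA B, where 3 reads correspond to 0.277 RPM. The RPM of most names, and not only of Mir148a, was lower in the MC-LR and the Hsp90aa1 shRNA libraries: the median log2 fold change over all names tested was -1.17 for MC-LR and -1.66 for the Hsp90aa1 shRNA. Each Mir148a value below is therefore read beside these medians. They were taken after 1 RPM was added to each value, which shrinks the fold change of low-level names. Without it, the median log2 ratio of group means over all listed names was -1.66 for MC-LR and -2.86 for the Hsp90aa1 shRNA. RPM is a share of a library's reads and does not measure an amount of RNA. In bulk sperm RNA, fewer cells of a type and less RNA per cell cannot be told apart, and neither was tested.

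The 22 nt name dominated the hairpin in every library. Among the 5 names listed in both tables, it made up 97.6% of the hairpin's reads in MC-LR A (Wilson 95% interval 97.4 to 97.7%) and 96.5% in MC-LR B (96.3 to 96.7%), against 95.5% in control A (95.4 to 95.6%) and 94.4% in control B (94.2 to 94.6%). It made up 95.1% and 95.0% in libraries A and B of the Hsp90aa1 shRNA, against 95.5% and 95.2% in those of the negative-control shRNA. Such intervals cover counting error only. The other microRNAs that were compared, those with at least 5 listed names at their site, were less uniform. MicroRNAs with fewer listed names were left out, and the shares count listed names only. Among annotated mature sequences with at least 5 listed names at their site, miR-148a-3p took a mean share of 96.0% in the MC-LR table, against 9.22 to 60.9% for the other 9 mature sequences. In the shRNA table its share was 94.3%, against 2.36 to 81.1% for the other 55 mature sequences, among which a gene can appear with both strands. The 23 and 24 nt names cover every base of the 22 nt name yet hold a small percentage of its reads, so reads were counted by exact extent and not given to every overlapping name.

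The abundance for which Mir148a was chosen held in 6 of the 8 libraries when set against the other listed microRNAs. Ranks cover listed names alone, with 369 microRNA rows in the MC-LR table and 1017 in the shRNA table, so a microRNA that was not listed has no rank. The 22 nt name ranked 1st of all 13450 names in all 4 libraries of the MC-LR table. It stood 3.95 and 3.50 times above the next listed microRNA, a let-7c name on Mirlet7c-2, in MC-LR A and B, against 4.47 and 4.50 times in control A and B. In the shRNA table it ranked 2nd and 7th of 17375 names in Hsp90aa1 shRNA A and B, and 2nd in both negative-control libraries. A name on Mirlet7g had 1143 and 362 RPM in Hsp90aa1 shRNA A and B, above the 972 and 242 RPM of miR-148a-3p. The ratio of miR-148a-3p to that name was 0.850 and 0.668 in the Hsp90aa1 shRNA libraries, against 2.38 and 2.16 in the negative-control shRNA libraries. The label of most abundant microRNA thus did not hold in the Hsp90aa1 shRNA libraries. As a share of all reads listed on microRNA hairpins, Mir148a took 42.6% and 34.8% in MC-LR A and B, against 37.1% and 34.3% in control A and B, and these ranges overlap. It took 5.70% and 4.25% in libraries A and B of the Hsp90aa1 shRNA, against 8.41% and 7.89% in those of the negative-control shRNA, without overlap. The tables list different microRNA names, so these shares cannot be compared between tables.

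**Figure D2:**
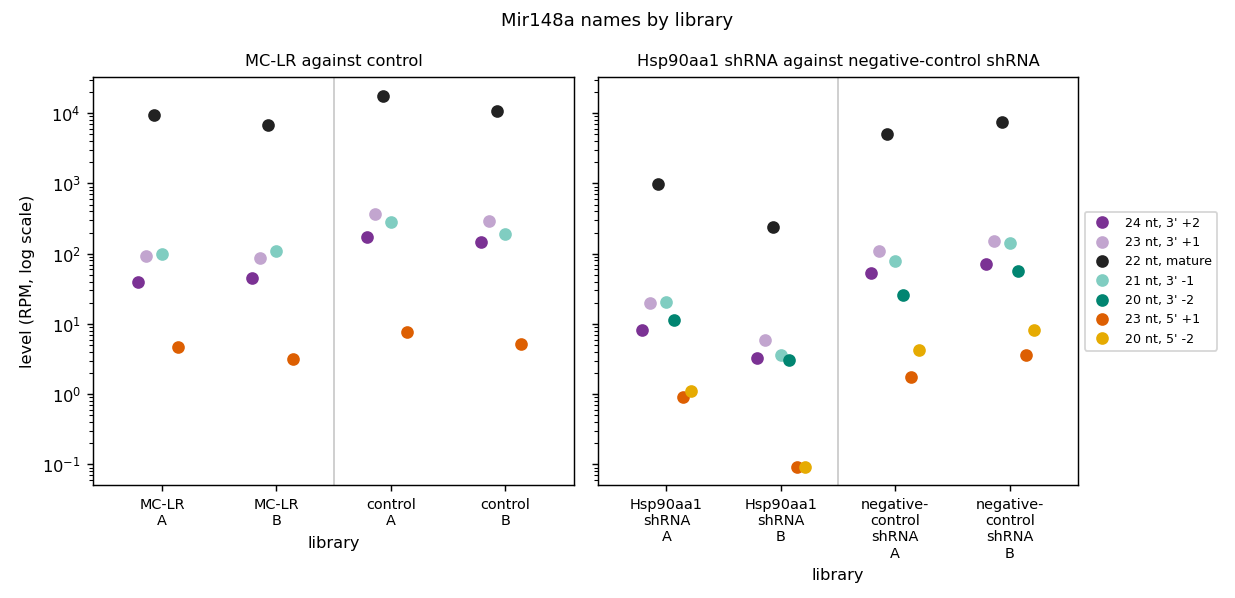
Level of each Mir148a name in each library, in RPM on a log scale, with 1 point per name and library and the MC-LR table on the left. The 22 nt name lies between 242 and 17716 RPM and the other names at 371 RPM or lower; every name of the right panel is lower in both Hsp90aa1 shRNA libraries than in both negative-control shRNA libraries.

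Under MC-LR, the comparison asks which small RNAs of sperm differ after exposure to the toxin. On the deposited scale the 3′-extended forms of miR-148a-3p had the largest falls, the 21 nt form a smaller one, and the mature sequence and the 5′-extended form did not pass the threshold of 0.05. The 24 nt name had 40.1 and 45.0 RPM in MC-LR A and B, against 175 and 145 RPM in control A and B. It averaged 42.5 ± 3.47 RPM under MC-LR and 160 ± 21.8 RPM in control (SD, n = 2 each), a level 3.76-fold lower. Its log2 fold change was -1.88 ± 0.34 on the log2(RPM + 1) scale (limma, adjusted p = 0.00120). The ± of a log2 fold change is the standard error of the limma fit, here and below. The 23 nt 3′-extended name had 93.1 and 87.2 RPM in MC-LR A and B, against 371 and 296 RPM in control A and B. The gap between the groups was larger than the range within either, and the log2 fold change was -1.87 ± 0.33 (limma, adjusted p = 0.00115). These forms carry 1 or 2 further bases of the hairpin, c and cu, at the 3′ end.

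The 21 nt name, 1 base short at the 3′ end, had 99.8 and 108 RPM in MC-LR A and B, against 287 and 189 RPM in control A and B. It fell by 1.16 ± 0.35 on the log2(RPM + 1) scale (limma, adjusted p = 0.0149), but the sign turned under TMM and DESeq2 size factors, at 0.46 and 0.50. Without MC-LR A or without MC-LR B the limma adjusted p was 0.113 and 0.0791. For this name the control libraries differed from each other more than the MC-LR libraries did.

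The mature 22 nt name had 9503 and 6744 RPM in MC-LR A and B, against 17716 and 10754 RPM in control A and B. Both MC-LR libraries lay below both control libraries, but control B was closer to MC-LR A than to control A. The means were 8123 ± 1951 RPM under MC-LR and 14235 ± 4923 RPM in control (SD, n = 2 each), a ratio of 1.75. The log2 fold change of -0.79 ± 0.36 did not pass (limma, adjusted p = 0.0651), and without control B it did (-1.15, adjusted p = 2.10e-04), whereas without control A it was -0.43 (limma, adjusted p = 0.144). The 5′-extended 23 nt name had 4.71 and 3.20 RPM in MC-LR A and B, against 7.72 and 5.24 RPM in control A and B. It rests on 28 and 21 reads under MC-LR, against 113 and 26 reads in control, and its log2 fold change of -0.59 ± 0.37 did not pass (limma, adjusted p = 0.142).

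So 3 of the 5 Mir148a names were lower under MC-LR and 0 higher by limma's adjusted p, with 3 at an unadjusted p under 0.05, while 73.1% of all 13271 names tested were lower and 2.37% higher. All 5 names had groups that do not overlap, which was also true, in the lower direction, of 92.6% of all names. The count was 2 of 5 without MC-LR A or without MC-LR B, and 5 of 5 without control B. The median log2 fold change was -1.16 over the Mir148a names, -1.05 over the names of other microRNA hairpins, of which 240 of 347 were lower, and -1.17 over all names. On the log2(RPM + 1) scale the hairpin's median thus sat at the background, with its members spread widely around it: the 24 nt and 23 nt 3′-extended names stood at percentiles 17.0 and 17.4 of all fold changes (the percentage of names with a lower one), the 21 nt name at 51.3, the mature name at 80.2 and the 5′-extended name at 94.0. That match and the percentiles depended on the added 1 RPM, which shrinks the fold change of low-level names. With 0.1 RPM added instead, the median was -1.16 over the Mir148a names and -1.57 over all names. With edgeR on library totals these medians were -1.19 and -1.64. The 24 nt and 23 nt 3′-extended names were then at -1.91 and -1.89, above the lower quartile of all names, at -2.23. Under scalings that bring the median of all names to near 0 (0.00 with edgeR's TMM factors and 0.04 with DESeq2's size factors), the mature name turned positive, at 0.84 and 0.89, and 0 Mir148a names passed in either direction. The 24 nt and 23 nt 3′-extended names stayed negative with TMM, at -0.26 and -0.23. Of the names on the hairpin, 0 were then lower and 1 higher at an unadjusted p under 0.05 with either tool.

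**Figure D3:**
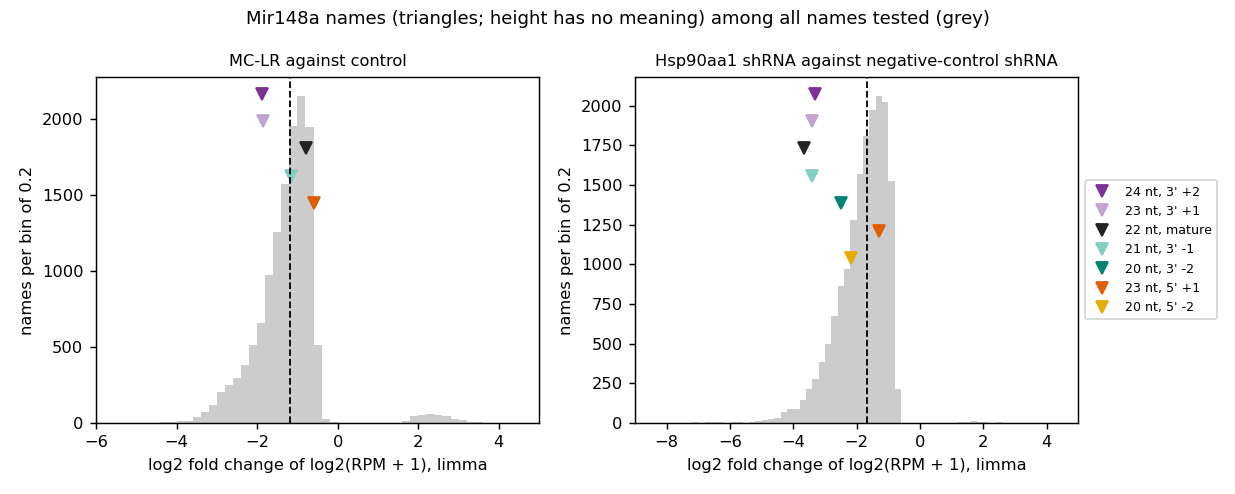
Histograms of the log2 fold change of all names tested (grey, bins of 0.2 on the log2(RPM + 1) scale, dashed line at their median), with a coloured triangle for each Mir148a name, whose height has no meaning. For MC-LR the 3′-extended names lie below the median of -1.17 and the mature and 5′-extended names above it; for the Hsp90aa1 shRNA, of the 7 names, the 5′-extended one alone lies above the median of -1.66.

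Set against the mature name of the same library, a measure that no scaling between libraries can alter, the 3′-extended forms separated the groups most clearly. The 24 nt name was 0.422 and 0.667% of the 22 nt name in MC-LR A and B, against 0.990 and 1.34% in control A and B. The 23 nt 3′-extended name was 0.979 and 1.29% of it in MC-LR A and B, against 2.09 and 2.75% in control A and B. Neither pair of ranges overlaps, and the mean log2 ratio to the mature name differed by -1.12 for the 24 nt name and by -1.09 for the 23 nt name. The 21 nt name was 1.05 and 1.61% of the mature name in MC-LR A and B, against 1.62 and 1.76% in control A and B, so MC-LR B and control A nearly touch. The 5′-extended name, at 0.0496 and 0.0475% under MC-LR, against 0.0436 and 0.0487% in control, overlapped between the groups. With 2 libraries against 2, the smallest two-sided p of an exact permutation test is 0.33, so none of these ratios can be called by a test of its own.

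The reads behind the ratios of the 3′-extended names were many, and counting error was small beside the difference. Together the 23 and 24 nt 3′-extended names took 1.37% (Wilson 95% interval 1.28 to 1.46%) of the reads of the 5 names in MC-LR A and 1.89% (1.77 to 2.02%) in MC-LR B. In control A they took 2.94% (2.88 to 3.01%) and in control B 3.86% (3.71 to 4.03%). Both MC-LR intervals lie below both control intervals, while the libraries within each group also differed from each other by more than counting error. The matching shares in the shRNA table were 2.75 and 3.59% in Hsp90aa1 shRNA A and B, against 3.04 and 2.85% in A and B of the negative-control shRNA, which overlap.

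**Figure D4:**
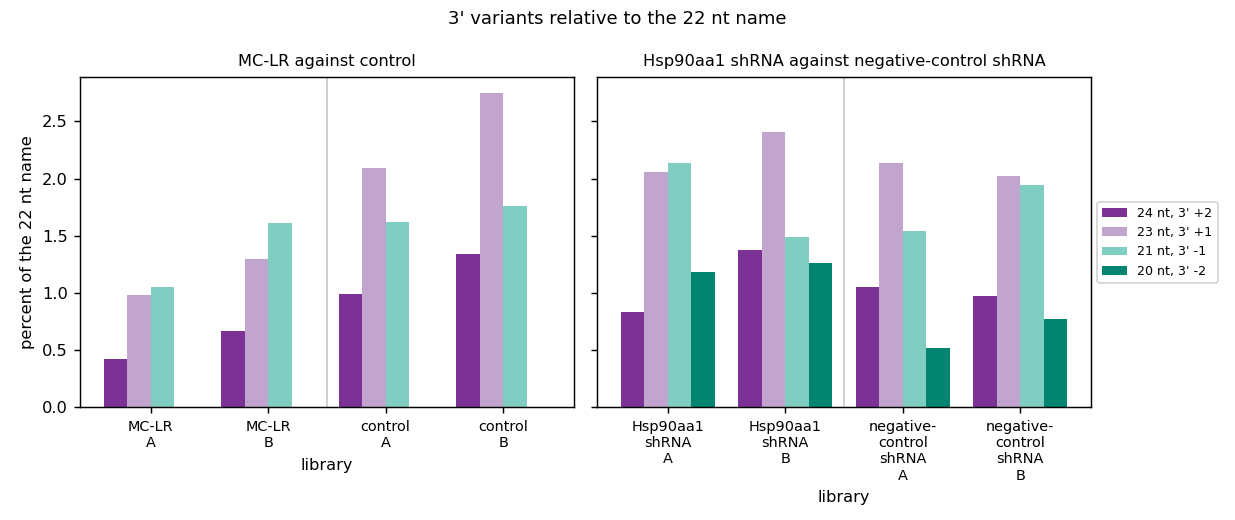
Level of each 3′ variant as a percentage of the 22 nt mature name in the same library, as bars from 0, with 1 bar per name and library. In the left panel the bars of the 23 and 24 nt names are shorter in both MC-LR libraries than in both control libraries; in the right panel the 20 nt name alone separates the groups, with longer bars in both Hsp90aa1 shRNA libraries.

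The same ratio was taken for the other microRNAs that have both their mature sequence and a 3′ variant listed at 1 locus. For a 3′ end 1 base longer, the change in the log2 ratio of variant to mature sequence under MC-LR was -1.09 for miR-148a-3p and ran from -1.03 to 0.71 over 28 other microRNAs, with a median of -0.10. For a 3′ end 2 bases longer it was -1.12 for miR-148a-3p and ran from -1.06 to 0.59 over 14 others, with a median of -0.07. In both classes 0 of the other microRNAs lay below miR-148a-3p. The nearest were miR-210-3p at 1 base longer (-1.03, with 6 reads in its thinnest library) and miR-204-5p at 2 bases longer (-1.06, with 32). The ratio was lower in both MC-LR libraries than in both control libraries for 11 of the 28 and 2 of the 14. For a 3′ end 1 base shorter miR-148a-3p was at -0.38, with 2 of 21 others below it and a median of 0.21. Many of the others rest on few reads, with a median of 60 in the library with the fewest at 1 base longer and 29 at 2 bases longer, against 553 and 238 reads for miR-148a-3p. In the shRNA comparison miR-148a-3p was at 0.10, 0.08 and 0.04 for ends 1 base longer, 2 bases longer and 1 base shorter, with 36 of 76, 24 of 47 and 47 of 74 others below it. Only listed names enter these comparisons, and the lists hold names that differ, so variants with little change are missing. Under MC-LR the mature miR-148a-3p had a log2 fold change of -0.79, so a variant listed as lower could hardly have a raised ratio. The listing thus shapes the rank of miR-148a-3p. These are descriptions across microRNAs of the same libraries, without a test.

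**Figure D5:**
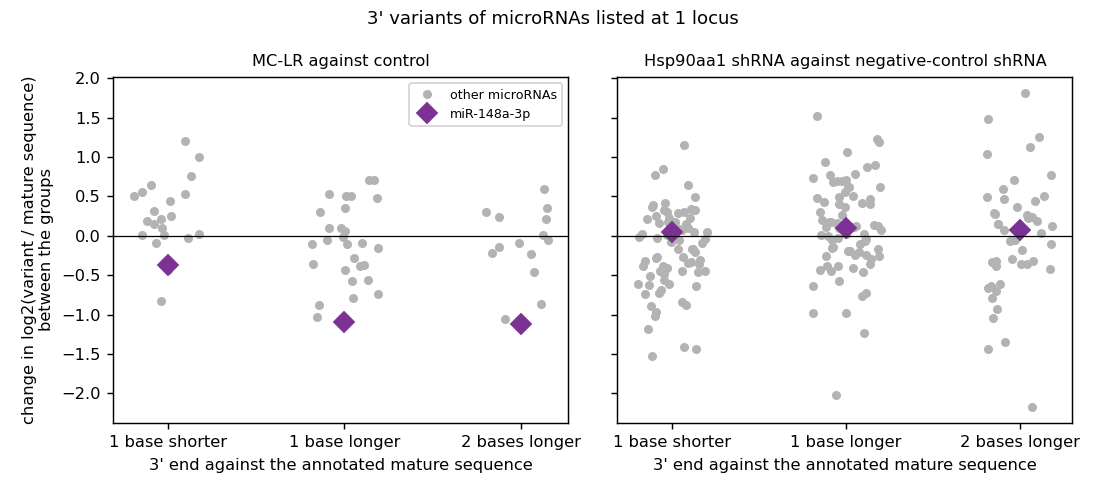
Change between the groups in the log2 ratio of a 3′ variant to its mature sequence, with 1 grey point per microRNA and miR-148a-3p as a diamond, by where the 3′ end lies. Only listed names enter, and variants with little change are missing from the lists. Under MC-LR the diamonds of the longer ends, at -1.09 and -1.12, are the lowest of their columns; in the shRNA comparison the diamonds lie between 0.04 and 0.10, inside the other points.

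With the shRNA against Hsp90aa1, all 7 Mir148a names were lower than with the negative-control shRNA, as were 99.5% of all names tested, by 9.12-fold to 11.0-fold for the 4 most abundant. The mature 22 nt name had 972 and 242 RPM in Hsp90aa1 shRNA A and B, against 5054 and 7411 RPM in negative-control shRNA A and B. It averaged 607 ± 516 RPM with the Hsp90aa1 shRNA and 6232 ± 1667 RPM with the negative-control shRNA (SD, n = 2 each), a level 10.3-fold lower. Its log2 fold change was -3.66 ± 0.89 (limma, adjusted p = 0.00338). The Hsp90aa1 shRNA libraries differed widely from each other, and B was the lower for every Mir148a name.

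The 3′-extended names fell by a similar factor to the mature one, here as changes on the log2(RPM + 1) scale. The 24 nt name had 8.08 and 3.32 RPM in Hsp90aa1 shRNA A and B, against 53.3 and 72.1 RPM in negative-control shRNA A and B, a change of -3.33 ± 0.58 (limma, adjusted p = 8.41e-04). The 23 nt 3′-extended name had 20.0 and 5.82 RPM in Hsp90aa1 shRNA A and B, against 108 and 150 RPM in negative-control shRNA A and B, a change of -3.42 ± 0.68 (limma, adjusted p = 0.00134). Relative to the mature name, the 24 nt form was 0.832 and 1.38% in Hsp90aa1 shRNA A and B, against 1.06 and 0.973% in A and B of the negative-control shRNA. The 23 nt form was 2.06 and 2.41% of the mature name in Hsp90aa1 shRNA A and B, against 2.13 and 2.02% in A and B of the negative-control shRNA. The groups overlap in both ratios, and the change in log2 ratio was 0.08 and 0.10.

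The 3′-shortened names fell too. The 21 nt name had 20.7 and 3.60 RPM in Hsp90aa1 shRNA A and B, against 77.9 and 144 RPM in negative-control shRNA A and B, a change of -3.42 ± 0.77 (limma, adjusted p = 0.00241). The 20 nt 3′-shortened name had 11.5 and 3.05 RPM in Hsp90aa1 shRNA A and B, against 26.2 and 57.5 RPM in negative-control shRNA A and B, a change of -2.49 ± 0.67 (limma, adjusted p = 0.00559). This name is the shortest that keeps the 5′ end. It was 1.19 and 1.26% of the mature name in Hsp90aa1 shRNA A and B, against 0.518 and 0.776% in A and B of the negative-control shRNA, without overlap. The mean log2 ratio was higher by 0.95 with the Hsp90aa1 shRNA, while the 21 nt form, at 2.13 and 1.49% with the Hsp90aa1 shRNA against 1.54 and 1.95% with the negative-control shRNA, overlapped between the groups. Of the variants compared with the mature name in this table, the 20 nt 3′-shortened name was the only one whose groups do not overlap, and at 33 reads in Hsp90aa1 shRNA B it is thinly covered.

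The 5′-shifted names were near the limit of detection with the Hsp90aa1 shRNA. The 20 nt 5′-shortened name had 1.12 and 0.0923 RPM in Hsp90aa1 shRNA A and B, against 4.22 and 8.30 RPM in negative-control shRNA A and B, or 15 and 1 reads against 41 and 111. Its change was -2.19 ± 0.44 (limma, adjusted p = 0.00138). The 5′-extended 23 nt name had 0.898 and 0.0923 RPM in Hsp90aa1 shRNA A and B, against 1.75 and 3.59 RPM in negative-control shRNA A and B, or 12 and 1 reads against 17 and 48. Its change of -1.30 ± 0.36 passed (limma, adjusted p = 0.00647), but not without Hsp90aa1 shRNA B (-0.90, adjusted p = 0.0934). At such levels the added 1 RPM compresses the fold change, so these values are not comparable with those of the abundant names.

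Over all 16859 names tested 0.219% were higher, and 99.8% of listed names were lower without overlap of the groups, as all 7 Mir148a names were. The median log2 fold change was -3.33 over the Mir148a names, -2.08 over names on other microRNA hairpins, of which 969 of 974 were lower, and -1.66 over all names. The gap to all names was smaller with 0.1 RPM added in place of 1, at -3.55 over the Mir148a names and -2.66 over all names. With edgeR on library totals these medians were -3.29 and -2.83. On the log2(RPM + 1) scale the mature name stood at percentile 2.71 of all fold changes, the 24, 23 and 21 nt names that keep the 5′ end at 4.70, 4.05 and 4.07, and the 20 nt 3′-shortened name at 17.8. The 5′-shortened and 5′-extended names stood at 26.1 and 71.1. These percentiles depended on the added 1 RPM. With edgeR on library totals the mature name was at -3.36 and the 23 nt 3′-extended and 21 nt names at -3.32 and -3.19. These values lie above the lower quartile of all names, at -3.44, and the 24 nt name, at -3.45, lies just below it. With edgeR's TMM factors, which bring the median of all names to -0.03, the mature name was at -0.64 and the 20 nt 3′-shortened and 5′-extended names turned positive, at 0.21 and 0.38. Under TMM, and likewise under DESeq2's size factors, 0 of the 7 names passed in either direction and 0 did at an unadjusted p under 0.05.

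The other family members share the seed and were listed at far lower levels; their RefSeq sequences are shown for comparison with miR-148a-3p, with bases 2 to 8 in capitals.
miR-148b-3p: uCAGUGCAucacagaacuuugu
miR-152-3p: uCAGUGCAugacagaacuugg

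miR-152-3p was listed as its exact mature sequence, the 21 nt name piR-mmu-48777953 at 11:96850439-96850459 on the plus strand. It had 45.1 and 60.7 RPM in MC-LR A and B, against 178 and 102 RPM in control A and B. Its log2 fold change was -1.35 ± 0.38 (limma, adjusted p = 0.0111) and turned positive, at 0.24 and 0.29, under TMM and DESeq2 size factors. Its 22 nt form piR-mmu-10850003 had a log2 fold change of -0.86 (limma, adjusted p = 0.0579), and the 24 nt form of miR-148b-3p, piR-mmu-10917426, one of -0.76 (limma, adjusted p = 0.0595). So 1 of 3 tested names of Mir148b and Mir152 was lower under MC-LR, where 73.1% of all names tested were lower, and the count was 0 of 3 without MC-LR A and 3 of 3 without control B. With TMM and with DESeq2 size factors 0 of 3 passed in either direction, and the 22 nt form of miR-152-3p turned positive, at 0.72 and 0.76, as did the 24 nt form of miR-148b-3p, at 0.81 and 0.85. Scaled to the microRNA sum, with or without Mir148a, 0 of 3 passed as well. The mature sequence of miR-148b-3p was listed in the shRNA table alone.

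With the Hsp90aa1 shRNA, 8 of 8 tested names of Mir148b and Mir152 were lower, as were 99.5% of all names tested, and 6 of 8 without Hsp90aa1 shRNA B. Under TMM, DESeq2 size factors and scaling to the microRNA sum with or without Mir148a, 0 of 8 passed in either direction, and the median log2 fold change of the 8 was 0.18, 0.21, 0.07 and 0.03. The mature miR-152-3p had 12.1 and 2.31 RPM in Hsp90aa1 shRNA A and B, against 50.5 and 92.4 RPM in negative-control shRNA A and B (log2 fold change -3.40, limma adjusted p = 0.00178). The mature miR-148b-3p, piR-mmu-48711420 at 15:103285185-103285206 on the plus strand, had 62.7 and 11.8 RPM in Hsp90aa1 shRNA A and B, against 160 and 250 RPM in negative-control shRNA A and B. Its log2 fold change was -2.81 ± 0.80 (limma, adjusted p = 0.00695), against -3.66 for miR-148a-3p in the same libraries, and it turned positive, at 0.24 and 0.27, with the call lost, under TMM and DESeq2 size factors. The difference between these microRNAs was not tested. In both, library B of the Hsp90aa1 shRNA was the lower.

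Markers of the cells that a sperm preparation may hold were summed beside these values, and their counts of lower names stand beside the 73.1% of all names tested that were lower under MC-LR and the 99.5% that were lower with the Hsp90aa1 shRNA. Of 21 germ cell microRNA genes, 2, Mir10a and Mir10b, were listed in the MC-LR table, with a summed level of 158 and 116 RPM in MC-LR A and B, against 292 and 199 RPM in control A and B (2 of 6 names lower). Of the same 21 genes, 18 were listed in the shRNA table, with 4174 and 1312 RPM in Hsp90aa1 shRNA A and B, against 14197 and 21392 RPM in negative-control shRNA A and B (164 of 164 names lower). The spermatogenic genes Mir34b, Mir34c and Mir449a were thus listed in the shRNA table and not in the MC-LR table. Of 14 genes of smooth muscle and epithelium, 10 were listed in the MC-LR table and 11 in the shRNA table, among them the epithelial Mir200b and Mir200c and the smooth muscle genes Mir143 and Mir145a. Their sum was 2758 and 2857 RPM in MC-LR A and B, against 7336 and 5299 RPM in control A and B (32 of 40 names lower). It was 1468 and 345 RPM in Hsp90aa1 shRNA A and B, against 6514 and 11386 RPM in negative-control shRNA A and B (63 of 63 names lower). Mir143 alone summed to 97.1 and 119 RPM in MC-LR A and B, against 269 and 198 RPM in control A and B. In the shRNA table Mir143 summed to 1003 and 211 RPM in Hsp90aa1 shRNA A and B, against 3614 and 7085 RPM in A and B of the negative-control shRNA. Of 8 blood cell genes, 3 were matched by gene symbol in the MC-LR table, at 2.36 and 5.03 RPM in MC-LR A and B, against 7.04 and 12.3 RPM in control A and B (2 of 4 names lower). Of the same 8 genes, 4 were matched in the shRNA table, at 174 and 145 RPM in Hsp90aa1 shRNA A and B, against 1849 and 3036 RPM in negative-control shRNA A and B (19 of 19 names lower). The match by symbol missed Mir142a of this list, although miR-142a-5p had 9 listed names in the shRNA table. The blood cell sums and counts therefore leave Mir142a out. Mir148a is expressed in many tissues, and the part of these cells in its levels was not tested.

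The names whose profile over the 8 libraries was most like that of miR-148a-3p were found by the root mean square difference of log2(RPM + 1), each profile centred on its own mean. Among 10610 names listed in both tables the median difference was 1.27. The smallest were 0.172 for piR-mmu-3817104 at 17:39847741-39847763 and 0.194 for piR-mmu-38897430 at 17:39847221-39847241, the printed one of its 2 loci. They were followed by piR-mmu-35525635 on Mir200c at 0.230, piR-mmu-48871428 on chromosome X at 0.241 and piR-mmu-8307867 on chromosome 6 at 0.243. Among 109 other microRNA genes, compared by their most abundant name, the median was 0.922 and the closest were Mir200b at 0.276, Mirlet7b at 0.290, Mir200c at 0.297, Mir99a at 0.306 and Mir99b at 0.309. The other Mir148a names were at 0.298 for the 21 nt name, 0.484 for the 23 nt 3′-extended name, 0.575 for the 24 nt name and 1.07 for the 5′-extended name. The 5′-extended name had only 0.0923 to 7.72 RPM, and at such levels the added 1 RPM flattens the profile. Its difference is therefore not comparable with those of the more abundant names. The closest isomiR, the 21 nt name, was thus about as near to the mature profile as Mir200b, Mirlet7b and Mir200c, which come from other hairpins. All profiles share the 8 libraries and their depth, and the tables were scaled apart.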

How the data were processed

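Small RNA was measured in 8 libraries of mouse sperm. RNA was taken up in Trizol and libraries were made with an NEBNext kit, per the labels' protocols. Bowtie2 2.2.3, HISAT2 2.1.0 and HTSeq 0.6.0 with mm10 are named, without roles, in the submitters' processing notes; the sources used here do not give trimming, the listing rule or the total behind the RPM. The authors deposited RPM per listed locus in 2 tables, 1 per comparison. Of all RPM values, 100% were within 0.01 of a whole number of reads, which gave back counts and library totals.

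Starts were read as 0-based: 73 and 172 listed loci then equal a mature microRNA, against 34 and 94 if 1-based. Each name was used once. Names whose file start was at least 51269780 and end at most 51269950 on chromosome 6 were taken as Mir148a. The members and gene lists were chosen with earlier results of these data known. Sequences and hairpins are RefSeq's, GRCm38.p6. Of 223 RefSeq microRNA genes outside that sequence table, 215 were placed with GENCODE M21 (GRCm38); Mir6236, whose listed names tile its whole length, was left out after its values were seen. A name lay on another microRNA with at least a share of 0.5 of its length on the hairpin.

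limma 3.58.1 (trend, robust) in R 4.3.3 was run on log2(RPM + 1), table by table, over names that averaged 1 RPM or more in either group, and p-values were adjusted by Benjamini-Hochberg, with 0.05 as the threshold. On the recovered counts edgeR 4.0.16 (quasi-likelihood, library totals) gave 10075 lower and 314 higher names for MC-LR and 16713 and 37 for the shRNA; DESeq2 1.42.0 was another alternative. Scripts were tested on simulated data. The names printed were the 6 most abundant of each table, the 3 most abundant of each arm, the extremes of fold change and those on the other side of the threshold, which together took in all 7; outside Mir148a, the names of Mir148b and Mir152 and the 5 microRNA genes and 5 names with the most similar profile. The let-7, miR-204 and miR-210 names beside Mir148a's rank and ratio were chosen after their values were seen.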

Additional observations from a re-analysis of the deposited data

How the results depend on the processing

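The scaling between libraries decides the calls, while the ratios of isomiR to mature sequence do not depend on it. The names lower under MC-LR numbered 9703 in the reported fit, 399 with DESeq2 size factors, 401 with edgeR's TMM factors, 1284 scaled to the microRNA sum, 1306 scaled to that sum without Mir148a (chosen after seeing the data), 4551 (with 73 higher) among names of at least 10 RPM, and 5259 to 10787 without 1 library. With the Hsp90aa1 shRNA they numbered 16773, then 122, 21, 21, 26 and 4293 (with 5 higher) under the same alternatives and 14367 to 16116 without 1 library. The median over all names moved to -0.52 (MC-LR) and 0.02 (shRNA) under the microRNA sum. Names of Mir148a called lower went to 0 of 5 and 0 of 7 under both kinds of size factor and both microRNA sums; at an unadjusted p under 0.05, limma on the microRNA sum had 2 of 5 and 0 of 7 lower. Without 1 library the counts ran from 2 (without MC-LR A or B) to 5 (without control B) of 5, and from 6 (without Hsp90aa1 shRNA B) to 7 of 7. Under MC-LR, signs turned for the mature name (0.89 with DESeq2, 0.84 with TMM, 0.14 and 0.21 on the microRNA sums), the 5′-extended name (0.97, 0.91, 0.18 and 0.24) and the 21 nt name (0.50 with DESeq2, 0.46 with TMM). With the Hsp90aa1 shRNA they turned for the 5′-extended name (0.36 and 0.38) and the 20 nt 3′-shortened name (0.24, 0.21, 0.20 and 0.15). The 24 and 23 nt 3′-extended names kept a negative sign under MC-LR in every alternative run, at -0.26 and -0.23 with TMM and -0.97 and -0.95 on the microRNA sum (limma, adjusted p = 0.111 and 0.108); the causes were not tested. The log2 ratio of group means of the Mir148a sum was -0.84 for MC-LR and -3.35 for the shRNA, and 0.12 and -0.71 as a share of the microRNA sum. The mature share in Hsp90aa1 shRNA A was 94.0% of all listed names and 94.2% over names of at least 10 RPM. Pseudocounts of 0.1 and 10 and no filter left 3 of 5 and 7 of 7 lower.

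The letters A and B gave a replicate block with 9554 lower and 315 higher under MC-LR (3 of 5 Mir148a names) and 16252 lower with the shRNA (7 of 7); the correlation of the letters' differences was 0.065 and -0.604, the second of these meaning that library A of one group deviated with library B of the other. A crossed replicate block, chosen after seeing the data, gave 16822 lower with the shRNA. A 5p-arm share could not be computed, since no 5p name was listed. With 2 libraries per group, and 1 read of each 5′-shifted name in Hsp90aa1 shRNA B, differences in those names were at the limit of detection.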
